A study of Mus musculus with 9 samples.

Results

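The 10 enzymes described here make, hold back or destroy all-trans retinoic acid, the active form of vitamin A in gene control. They were chosen by gene symbol for their role in the pathway, with no threshold on their signals, and all 10 were measured, each by 1 probe set, among 22061 genes in all. Retinol dehydrogenase Rdh10 and the cytosolic alcohol dehydrogenases Adh1 and Adh7 oxidise retinol to retinaldehyde. Dhrs3 runs that step backwards and returns retinaldehyde to retinol. Aldh1a1, Aldh1a2 and Aldh1a3 oxidise retinaldehyde to retinoic acid, and the cytochromes P450 Cyp26a1, Cyp26b1 and Cyp26c1 hydroxylate retinoic acid for breakdown. Dhrs3 and Cyp26a1 are known from other tissues as genes that retinoic acid itself induces, so that they stand in a feedback loop. In the heart, Aldh1a2 is known as an enzyme of the epicardium, the mesothelial layer on the surface.

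RNA came from the right ventricle of male mice, with 1 Affymetrix GeneChip WT array for each of 9 samples in 3 groups of 3. Wild-type mice were fed vitamin A sufficient pellets, and animals labelled LRAT -/- were fed either the sufficient or the vitamin A deficient pellets. The sufficient pellets carried 250000 U/kg of retinol palmitate that the deficient pellets lacked, and all mice were killed after 50 days on their diet. No wild-type mice on the deficient diet are in these data, so the diet comparison exists only within the LRAT -/- label. Lrat, lecithin retinol acyltransferase, esterifies retinol for storage. The labels do not describe the LRAT -/- allele, the age or strain of the mice, or whether the 3 samples of a group came from 3 animals, so p-values reflect the spread among these arrays alone, part of which may be technical.

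Values are log2 signals after the authors' RMA normalisation. The median gene lay between 7.16 and 7.21 in every array, and the mean of 5222 negative control probe sets, used here as background, lay between 5.37 and 5.71. The Lrat probe set was brighter in the arrays labelled LRAT -/- (7.58 to 8.09) than in wild type (6.245 to 6.426), and its genotype difference was 1.53 (adjusted p = 0.00153 in limma), so the signal was not lower where the label names a loss. Whether this probe set lies in the deleted part of the gene is not known here, so every genotype direction below rests on the labels. Cardiomyocyte markers were high in every array, with a mean log2 signal of 13.62 to 13.75 over 10 genes, all above background.

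The stretch before the transcription start is shown for 3 members because it bears on the feedback named above: Cyp26a1, whose start carries a textbook retinoic acid response element, and Dhrs3 and Cyp26b1, which showed the lowest unadjusted p-values of the 10 in the diet and combined comparisons and in the F test. Each line holds the 250 bases before the first start listed by RefSeq on GRCm38.p6, read 5′ to 3′ on the gene's strand. They lie at chr19:37697558-37697807 on the plus strand, chr4:144892577-144892826 on the plus strand and chr6:84593811-84594060 on the minus strand. Capitals mark a direct repeat with a gap of 5 bases, the classic form of that element.
Cyp26a1: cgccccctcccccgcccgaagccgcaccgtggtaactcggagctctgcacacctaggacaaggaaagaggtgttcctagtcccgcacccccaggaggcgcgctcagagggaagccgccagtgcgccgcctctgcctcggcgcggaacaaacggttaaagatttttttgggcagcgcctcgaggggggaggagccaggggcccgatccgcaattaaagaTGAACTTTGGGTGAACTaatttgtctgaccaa
Dhrs3: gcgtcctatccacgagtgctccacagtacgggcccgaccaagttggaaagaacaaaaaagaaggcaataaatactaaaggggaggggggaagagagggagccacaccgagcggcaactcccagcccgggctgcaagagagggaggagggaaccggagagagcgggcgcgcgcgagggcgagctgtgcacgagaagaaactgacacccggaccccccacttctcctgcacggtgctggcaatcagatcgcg
Cyp26b1: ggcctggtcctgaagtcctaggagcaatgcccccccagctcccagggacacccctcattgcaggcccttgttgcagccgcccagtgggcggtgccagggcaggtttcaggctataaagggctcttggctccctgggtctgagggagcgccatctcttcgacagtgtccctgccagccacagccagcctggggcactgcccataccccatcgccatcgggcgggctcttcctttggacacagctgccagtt

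The repeat in Cyp26a1 begins at position -32 from the start and reads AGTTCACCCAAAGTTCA on the opposite strand. Both strands were searched for the hexamer AGGTCA and its variant AGTTCA. The related hexamer GGGTCA and its own variant GGTTCA were searched in the same way, as were pairs of any of them in 1 orientation with gaps of 1, 2 or 5 bases, so each repeat also counts as hexamers. Windows ran from 250 bases before to 50 after the start, and the shares count only the first listed window of each gene. A pair with a gap of 5 occurred in 0.0962% of 27025 promoters, with a gap of 1 in 0.226% and with a gap of 2 in 0.263%. At least 1 hexamer occurred in 43.4%. The members were searched in all their listed windows. Of the 8 members in the promoter table, Cyp26a1 held 2 hexamers and Adh7 held 1. Of the 2 windows of Aldh1a1, the first held none and the other held 1, which the shares would not count. The windows of Dhrs3 (3 starts), Cyp26b1, Cyp26c1, Aldh1a2 and Adh1 held none. A match is a description of letters and not a shown binding site, and these windows say nothing of elements farther away.

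The combined comparison set the deficient LRAT -/- arrays against wild type, where genotype label and diet differ together. Dhrs3 and Cyp26b1, enzymes that lower retinaldehyde and retinoic acid, had lower signals in the deficient arrays, with no overlap between the groups. Aldh1a2, which makes retinoic acid, differed by -0.42 on the log2 scale, with overlapping groups. Aldh1a1 differed by -0.17, and Cyp26a1 and Cyp26c1 by -0.14 each. Rdh10, Adh1, Adh7 and Aldh1a3 differed by under 0.1. The limma interval of Adh1 ran from -0.93 to 0.93 and Adh7 lay near background, so neither value shows an absence of change. No member passed the threshold of an adjusted p under 0.05 over all 22061 genes (0 of 10, against 0.068% of all genes), nor did any in the F test over the 3 groups (0.0408%). Dhrs3, Cyp26b1 and Aldh1a2 had an unadjusted p under 0.05, all lower (3.35% of all genes), and Dhrs3 and Cyp26b1 were lower without overlap (4.88%).

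Dhrs3 signal was 10.65, 10.89 and 10.63 in the wild-type arrays numbered 1, 2 and 3. In the LRAT -/- arrays on the sufficient diet it was 10.43, 10.43 and 10.50. The first 2 of these were equal to the last deposited digit, which can lower the SD. On the deficient diet it was 10.18, 9.99 and 10.16. The 3 groups thus stood in falling order without any overlap, which held for 24 of 22061 genes (0.109%), and Dhrs3 had the fifth largest combined difference among those 24. The combined difference was -0.61 (SE 0.09, 95% interval -0.81 to -0.41), a 1.53-fold lower signal with an adjusted p of 0.0754 in limma, and it ranked 18 of 22061 by p. With array weights, which count less regular arrays for less, the difference was -0.60 and passed (adjusted p = 0.0412), and over all 20 other settings the adjusted p ran from 0.0412 to 0.413. In the authors' deposited table the ratio of the deficient LRAT -/- group to wild type was 0.659 for Dhrs3, with a p-value of 0.000352 and, given once for the probe set, a false discovery rate of 0.375.

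Cyp26b1, which clears retinoic acid in many adult tissues, had signals of 7.48, 7.35 and 7.55 in wild type. In LRAT -/- arrays on the sufficient diet it had 7.28, 7.28 and 7.36, again with the first 2 equal to the last deposited digit. On the deficient diet it had 7.11, 7.06 and 7.08. The deficient arrays lay below all 6 others, while the wild-type and sufficient LRAT -/- groups met at 7.35 and 7.36. The combined difference was -0.38 (SE 0.07, 95% interval -0.55 to -0.22), 1.3-fold lower with an adjusted p of 0.224 in limma, and it ranked 40 of 22061 by p. The Cyp26b1 signal was above that of 81.2% to 90.0% of the negative controls of its array, whose 95th percentile lay between 8.09 and 8.54, so the fold is that of a dim probe set. The authors' deposited table gives a ratio of 0.729 for Cyp26b1, with a p-value of 0.000205 and a false discovery rate of 0.330. The group means here gave a ratio of 0.767.

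Several cell type marker lists also differed between the deficient and the wild-type arrays, with none of their genes called. The 12 epicardial and mesothelial markers, of which 11 were above background in every group and Muc16 was not, had a mean log2 signal of 7.22 to 7.79 in wild type, 7.09 to 7.16 in sufficient LRAT -/- arrays and 6.79 to 7.10 in deficient arrays. All 12 were lower in the combined comparison, 6 of them without overlap (4.88% of all genes were lower without overlap). Their median difference was -0.39. Upk3b, a uroplakin of mesothelial cells, had the largest of them, -1.36, while Wt1 had -0.15, Krt8 -0.10 and Tbx18 -0.09, with overlapping groups. The mean of the list was highest in wild-type array 1, at 7.79 against 7.22 and 7.37 in wild-type arrays 2 and 3. The 12 fibroblast markers, all above background, ran from 9.06 to 9.20, 8.85 to 8.92 and 8.81 to 8.96 in the same order of groups. Of these 12, 11 were lower in the combined comparison (median -0.21), 5 of them without overlap. Of 8 macrophage markers, 7 were lower in the combined comparison (median -0.18), 1 of them without overlap. All 5 erythroid markers were higher (median 0.47), Slc4a1 without overlap (3.28% of all genes were higher without overlap). Their mean signals were 9.48 to 10.12 in wild type and 9.97 to 10.67 in deficient arrays. The part of these cells in the lower signals of Dhrs3, Cyp26b1 and Aldh1a2 was not tested, and in bulk tissue fewer cells of a type and less RNA per cell cannot be told apart.

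**Figure D1:**
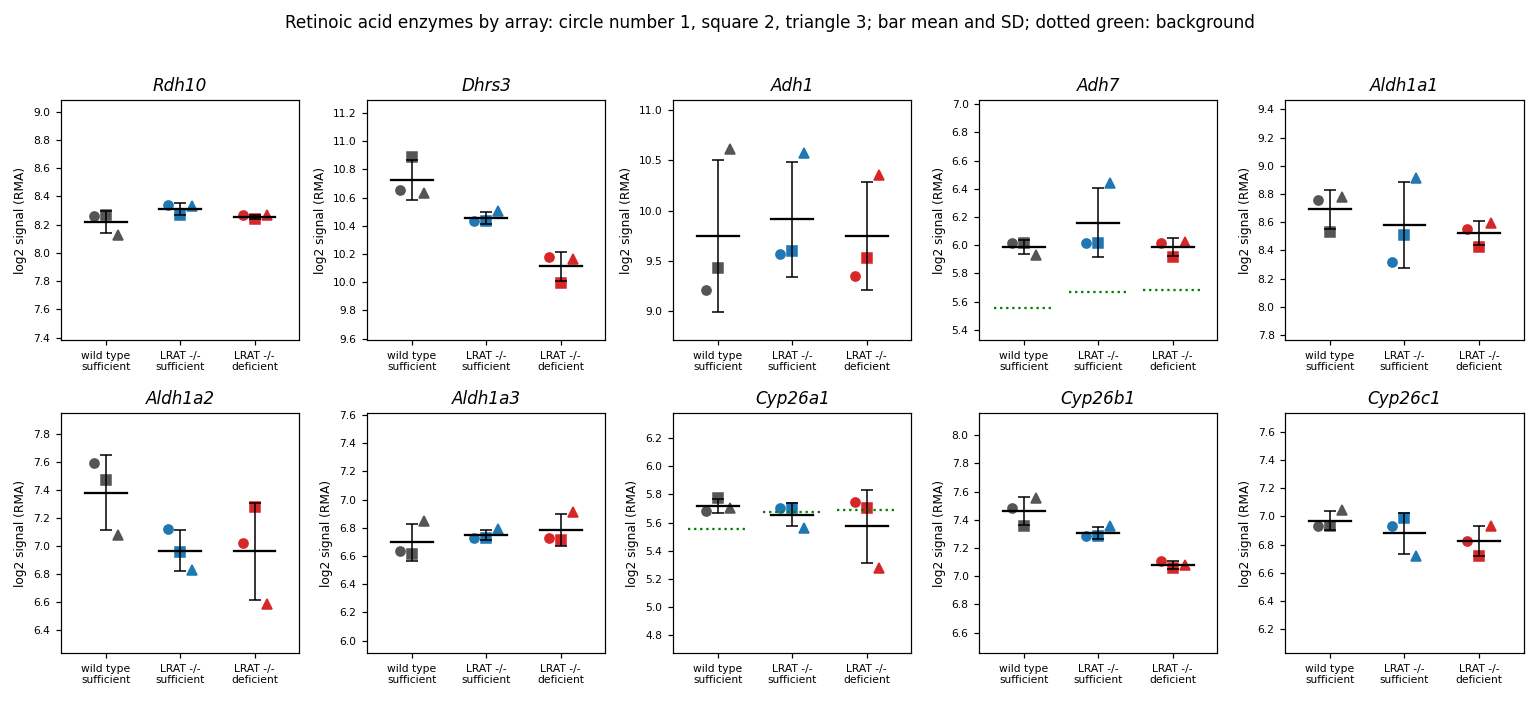
Log2 RMA signal of each of the 10 enzymes in every array, by group; symbols give the array number (circle 1, square 2, triangle 3), bars the mean and SD of 3 arrays, and the dotted line the mean negative control signal of the group where it lies within the panel. Dhrs3 steps down from a mean of 10.72 to 10.46 and 10.11 and Cyp26b1 from 7.46 to 7.31 and 7.08, while Adh1 is high in the arrays numbered 3 of every group.

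The diet comparison asked what the missing vitamin A changed within mice labelled LRAT -/-. Signals of 9 of 10 members were lower on the deficient diet, as were those of 54.8% of all genes, yet 8 of the 10 differences were smaller than 0.18 on the log2 scale. The median over the members was -0.07, beside -0.01 over all genes. Without the arrays numbered 3, 7 of 10 were lower, with Aldh1a1, Aldh1a2 and Cyp26a1 higher. Dhrs3 differed by -0.34 (SE 0.09, 95% interval -0.54 to -0.14) and Cyp26b1 by -0.23 (SE 0.07, 95% interval -0.39 to -0.07), 1.27-fold and 1.17-fold lower. They were the 2 members whose groups did not overlap, against 3.26% of all genes that were lower without overlap, and the 2 with an unadjusted p under 0.05 (0.87% of all genes, lower). By p they ranked 17 and 44 of 22061, and the adjusted p was 1 for both.

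Within each array number the diet difference had the same sign for both genes. For Dhrs3 it was -0.25, -0.44 and -0.34 in the arrays numbered 1, 2 and 3, and for Cyp26b1 it was -0.18, -0.23 and -0.28. No gene was called in this comparison by limma (0%), with 290 at an unadjusted p under 0.05, and 2 were called with array weights, neither of them a member. For the same contrast the authors' deposited table gives ratios of 0.778 for Dhrs3 and 0.817 for Cyp26b1, beside 0.789 and 0.854 from the group means here. Over the 12 epicardial and mesothelial markers the median diet difference was -0.16, and over the 12 fibroblast markers it was 0.03. Of 10 endothelial markers 8 were higher on the deficient diet (median 0.15), as were all 5 erythroid markers (median 0.27). Of these, Cdh5 was higher without overlap, as were 1.96% of all genes. Acta2, a smooth muscle actin, had a diet difference of -1.10, and the natriuretic peptide gene Nppa, among the atrial markers, had -1.25. Both were lower without overlap and with an adjusted p of 1. For Acta2 the genotype difference was 1.07 and the combined difference -0.02, so its deficient arrays lay near the wild-type level. For Nppa these differences were -0.09 and -1.34. In the diet comparison the lists did not follow Acta2 and Nppa. Of 8 smooth muscle and pericyte markers 4 were lower (median -0.03), as was 1 of 4 atrial markers (median 0.10).

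The genotype comparison set LRAT -/- against wild-type arrays, both on the sufficient diet. The largest difference was that of Aldh1a2, the retinaldehyde dehydrogenase that makes most retinoic acid in the mouse embryo, and Dhrs3 was the 1 member whose groups did not overlap (4.03% of all genes were lower without overlap). None of the 10 passed, against 0.0363% of all genes called, and Dhrs3 had an unadjusted p under 0.05 (3.01% of all genes, lower). With the array number as a block, Aldh1a2 was under 0.05 as well, and none passed after adjustment. This comparison shares its sufficient LRAT -/- arrays with the diet comparison and its wild-type arrays with the combined one, so the 3 are not independent of each other.

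Aldh1a2 signal was 7.60, 7.47 and 7.08 in wild type. It was 7.12, 6.95 and 6.83 in LRAT -/- arrays on the sufficient diet and 7.02, 7.28 and 6.59 on the deficient diet. The third wild-type array lay inside the range of both LRAT -/- groups, and the array numbered 3 was the lowest of each group. The genotype difference was -0.41 (SE 0.19, 95% interval -0.83 to 0.0022, adjusted p = 0.871) and the combined difference -0.42 (95% interval -0.84 to -0.0030, adjusted p = 0.817), both 1.33-fold to 1.34-fold lower. The diet difference was -0.0053, with a 95% interval from -0.42 to 0.41. Within array numbers 1, 2 and 3 the genotype difference was -0.48, -0.52 and -0.25. With the array number as a block the SE of the Aldh1a2 differences was 0.11, with an adjusted p of 0.328 for genotype and 0.305 for the combined difference. The Aldh1a2 signal was above that of 72.8% to 91.0% of the negative controls of its array. Without the deficient array numbered 3 the combined difference was -0.23, and without the deficient array numbered 2 it was -0.58. The authors' deposited table gives Aldh1a2 ratios of 0.731 for genotype, 0.761 for both together and 1.04 for diet. The group means here gave 0.75, 0.748 and 0.996. Of the epicardial and mesothelial markers, 11 of 12 were lower in the genotype comparison (median -0.26), 2 of them without overlap. Over all genes 4.03% were lower without overlap. All 12 fibroblast markers were lower too (median -0.24, 5 without overlap), as were all 10 endothelial markers (median -0.17, 3 without overlap). Of 8 macrophage markers, 7 were lower (median -0.23, 2 without overlap). Other lists went the other way. All 5 erythroid markers were higher (median 0.281, Slc4a1 without overlap). Only 2 of 8 smooth muscle and pericyte markers were lower (median 0.105), with Acta2 higher without overlap. Over all genes 3.67% were higher without overlap. Of 10 cardiomyocyte markers 4 were lower (median 0.014). No gene of these lists was called.

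For Dhrs3 the genotype difference was -0.27 (SE 0.09, 95% interval -0.47 to -0.07, adjusted p = 0.698), and for Cyp26b1 it was -0.16 (95% interval -0.32 to 0.0074, adjusted p = 0.887). Dhrs3 was lower within each of the array numbers, by -0.22, -0.46 and -0.13. Wild-type array 2 held the highest Dhrs3 signal of all 9, and without it the genotype difference was -0.19 and the combined difference -0.53.

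**Figure D2:**
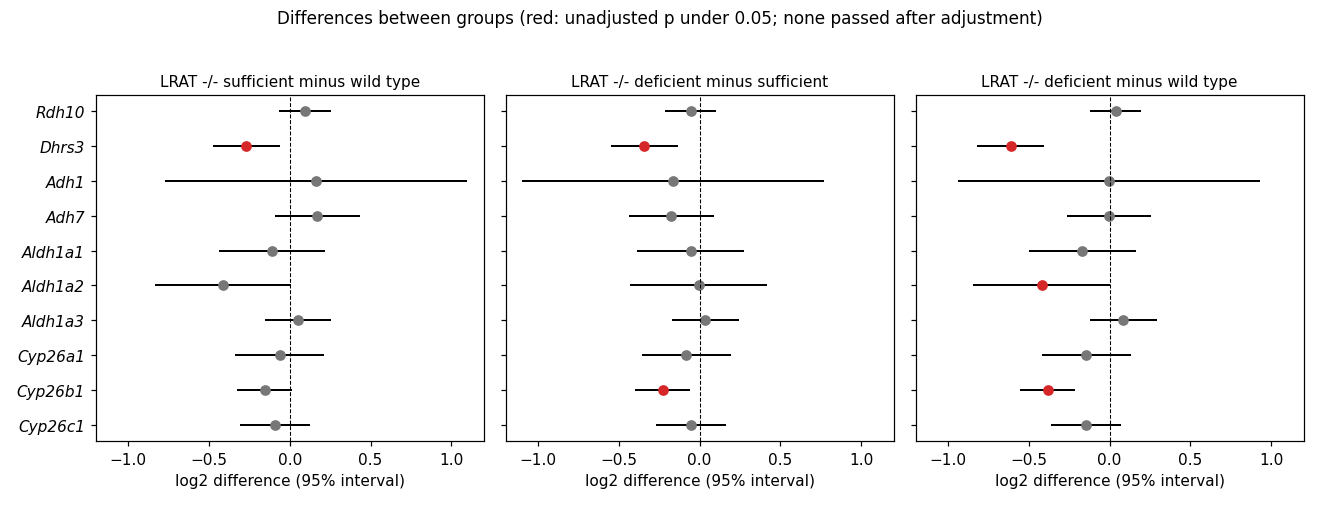
Log2 difference of each enzyme in the 3 comparisons, with its 95% interval from limma; red marks an unadjusted p under 0.05. The combined intervals of Dhrs3 (-0.81 to -0.41) and Cyp26b1 (-0.55 to -0.22) lie below 0, and those of Adh1 are the widest.

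The enzymes that open the pathway showed no group difference beyond the spread of the arrays. Rdh10, the membrane-bound retinol dehydrogenase needed for most embryonic retinaldehyde, stayed between 8.13 and 8.34 in all 9 arrays. Its differences were 0.09 for genotype, -0.06 for diet and 0.04 for both. The interval in the combined comparison ran from -0.11 to 0.19. The largest fold inside the 95% interval was 1.19 for genotype, 1.16 for diet and 1.14 for both. Of its 9 arrays, 4 carried the same value to the last deposited digit, which can lower the SD and narrow these intervals. The Rdh10 signal was above that of 92.6% to 95.8% of the negative controls of its array. Adh7, the class IV alcohol dehydrogenase of epithelia, lay only 0.30 to 0.49 above background in the group means, and 5 of its 9 arrays carried the same value to the last deposited digit. The sufficient LRAT -/- array numbered 3 stood out at 6.44, against 6.02 or less in the others. Without it the genotype difference of Adh7 was 0.03 in place of 0.17.

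Adh1, the class I alcohol dehydrogenase known best from liver, varied more than any other member, but not by group. Its signals were 9.21, 9.43 and 10.61 in wild type, 9.57, 9.59 and 10.57 in sufficient LRAT -/- arrays and 9.35, 9.53 and 10.36 in deficient arrays. In each group the array numbered 3 was the high one, by 1.29, 0.98 and 0.91 over the mean of the other 2. Among all 22061 genes, Adh1 ranked 5 by how far the arrays numbered 3 lay above the rest. The group means were 9.75 ± 0.75, 9.91 ± 0.57 and 9.75 ± 0.54 (SD, n = 3), and the combined difference of -0.0038 had an interval from -0.93 to 0.93. With the array number as a block, the SE of the Adh1 differences was 0.10 in place of 0.41, and the adjusted p of the genotype difference of 0.16 was 0.699.

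The labels say nothing of what the number 3 stands for. Aldh1a2 went the other way, with the array numbered 3 lower by 0.46, 0.21 and 0.56 in the 3 groups, and Aldh1a3 and Aldh1a1 were higher in it in each group, by 0.06 to 0.23 and by 0.11 to 0.50. Dhrs3 and Cyp26b1 differed by 0.14 or less between number 3 and the others within a group. Leaving out all 3 arrays numbered 3, the combined differences were -0.68 for Dhrs3, -0.34 for Cyp26b1 and -0.38 for Aldh1a2. The 6 adipocyte markers had a mean signal of 7.17 to 7.33 in the arrays numbered 3 and 7.07 to 7.20 in the other 6. Over the 5 that were above background in every group, without Adipoq, the ranges were 7.54 to 7.72 and 7.49 to 7.64, and their part in the Adh1 signal was not tested.

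**Figure D3:**
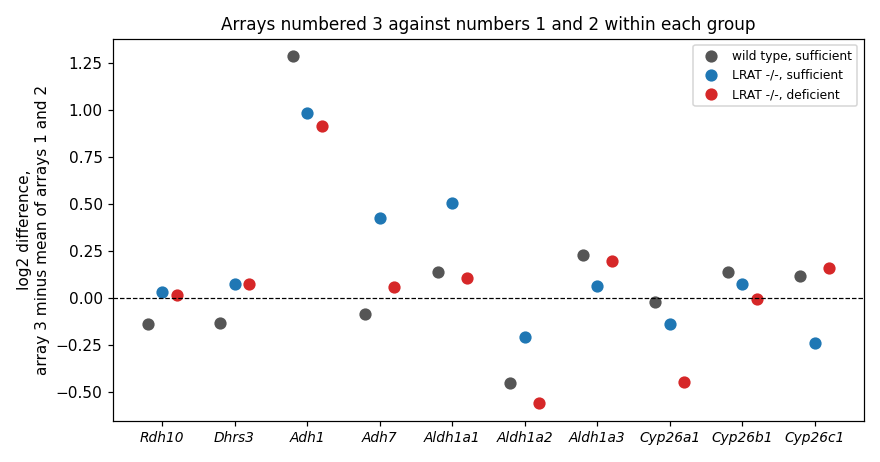
For each enzyme, the log2 signal of the array numbered 3 minus the mean of the arrays numbered 1 and 2, within each of the 3 groups (1 point a group). Adh1 lies between 0.91 and 1.29, Aldh1a2 between -0.56 and -0.21, and Dhrs3 within 0.14 of 0.

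The other retinaldehyde dehydrogenases had smaller combined differences than Aldh1a2, and the genes were not tested against each other. Aldh1a1, a broadly expressed cytosolic form, had 8.69 ± 0.14 in wild type, 8.58 ± 0.31 in sufficient LRAT -/- arrays and 8.52 ± 0.09 in deficient arrays (SD, n = 3), with overlapping groups. Its combined difference was -0.17 (95% interval -0.49 to 0.16), an interval that holds the value of Aldh1a2. Aldh1a3, the form with the most restricted expression in the embryo, lay between 6.61 and 6.91 in all arrays, and its combined difference was 0.09 (95% interval -0.11 to 0.28). The Aldh1a3 signal was above that of 74.0% to 80.2% of the negative controls of its array.

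Among the retinoic acid hydroxylases, Cyp26b1 was the 1 gene whose deficient arrays stood apart. Cyp26a1, the form that retinoic acid induces most directly in liver and embryo and the carrier of the repeat shown above, was not distinguishable from background. Its signal was 5.68, 5.77 and 5.70 in wild type, 5.70, 5.70 and 5.56 in sufficient LRAT -/- arrays and 5.74, 5.70 and 5.28 in deficient arrays. It exceeded only 42.7% to 61.4% of the negative controls, and its group means minus the background mean were 0.16, -0.015 and -0.11, so no fold is given. Cyp26c1 lay between 6.72 and 7.05, with a combined difference of -0.14 (95% interval -0.35 to 0.06) and overlapping groups.

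The members were then set against the pathway around them, listed by role. Of 27 other enzymes of retinoid oxidation and reduction, none was called in any comparison, and 18 were above background in every group. Dhrs7, a short-chain dehydrogenase of the family of Dhrs3, had a combined difference of 0.53 (adjusted p = 0.342), and Cyp2s1, a cytochrome P450, had -0.42 (adjusted p = 0.476). Aldh8a1, a retinaldehyde dehydrogenase known for the 9-cis form, had 0.13 and was not above background in every group. The median combined difference of the 27 was 0.0052, beside -0.14 for the 10 members and -0.01 for all genes.

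Of 20 genes of retinoid uptake, binding and storage, the Lrat probe set was the only one called (combined 1.35, adjusted p = 0.00269). Rbp7, a cellular retinol-binding protein of endothelium and fat, went from 7.35 ± 0.44 to 8.01 ± 0.19 and 8.46 ± 0.42 (SD, n = 3), with a combined difference of 1.12 (adjusted p = 0.315). The fatty acid translocase Cd36 had 0.20 (adjusted p = 0.841). Of 10 nuclear receptors none was called. The retinoic acid receptor gene Rarg had a combined difference of -0.19 (adjusted p = 0.837), and the retinoid X receptor gene Rxrb had -0.16 (adjusted p = 0.964).

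A list of 20 genes known to respond to retinoic acid, Lrat among them and none of the 10 members, had 17 lower and 3 higher signals in the combined comparison, where 54.3% of all genes were lower. Hoxa5, Stra8 and Rarres1 of this list were not above background in every group. Its median was -0.08, beside -0.01 over all genes, with 4 lower without overlap (4.88% of all genes) and only Lrat called. Rarres2, the chemerin gene, had -0.34 (adjusted p = 0.738) and the immediate early gene Egr1 -0.95 (adjusted p = 0.868), where wild-type array 2 stood at 10.24 against 8.09 and 8.20. The receptor gene Rarb, a classic target named here after its values were seen, had a diet difference of -0.22 and a combined difference of -0.09 (adjusted p = 0.989).

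**Figure D4:**
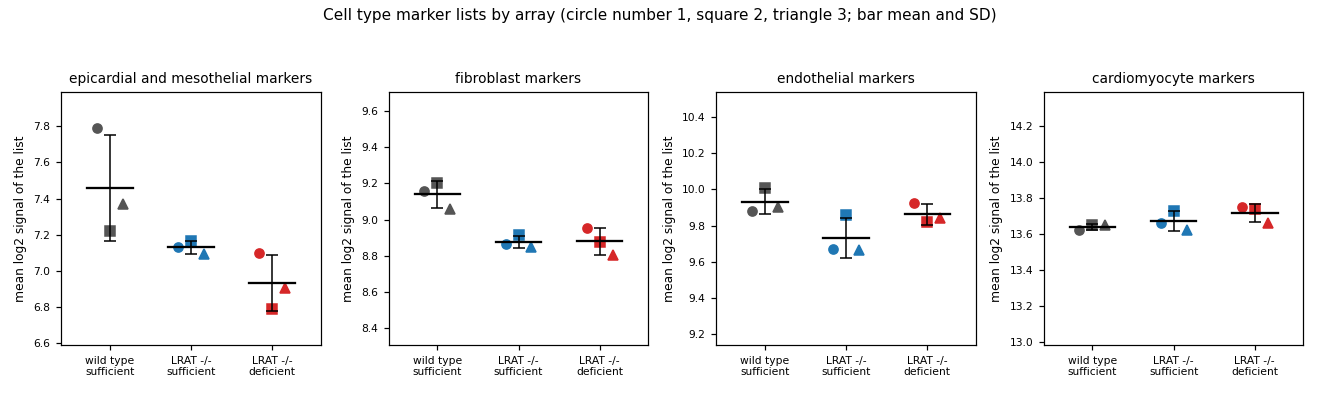
Mean log2 signal of 4 marker lists in every array, by group (symbols give the array number, bars the mean and SD of 3 arrays). Epicardial and mesothelial markers run from 7.22 to 7.79 in wild type and from 6.79 to 7.10 in deficient LRAT -/- arrays, and cardiomyocyte markers stay within 13.62 to 13.75.

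The genes whose signal ran most like a member's over the 9 arrays were found by Pearson's r. The search held 15733 genes above background in every group. Predicted genes, RIKEN clones, olfactory receptors and genes with only a locus or accession name were left out. It is a description with no test, since so many genes over 9 arrays give high values readily and arrays share their group and number. The closest to Adh1 were Fam216a (r = 0.985), Pmis2 (0.985) and Erich5 (0.966). Of these, Pmis2 lay near background, at 5.57 to 5.91. The closest to Aldh1a2 were Pde9a (0.977), Gatm (0.964) and Mir212 (0.961). Dhrs3 was added after its values were seen, and ran closest to Ccl6 (0.954), Timp2 (0.948) and Tspan15 (0.933). Cyp26b1 stood at rank 66 in the order for Dhrs3 (r = 0.847), the highest of any member.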

How the data were processed

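RNA was measured in 9 right ventricle samples, 3 per group, with 1 array each. The authors deposited a series table of log2 signals made with RMA (background correction, quantile normalisation and a summary per probe set); RMA, R 3.1.2 and the mm8 build are named per the submitters' processing notes. Another deposited table of RMA values gave the gene symbols, and its 9 value columns match no sample label and were not used. The authors' deposited comparison table gave a ratio and a p-value per contrast, with columns for the group and for a scan date term, per the file headers. Its ratios differ from those of the group means here, so they are not the same measure. The cause was not tested. Which array was scanned when is not given in the sources used here, so scan date was not fitted.

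Controls were removed, symbols were updated through RefSeq GRCm38.p6, and the probe set with the highest mean was kept for each of 22061 genes. Group means were fitted to all 9 arrays with limma 3.58.1 in R 4.3.3 (two-sided, residual degrees of freedom 6, Benjamini-Hochberg over all genes, called at an adjusted p under 0.05), after testing on simulated data. Intervals are limma's at 95%. A group mean above that of 5222 negative controls counted as above background. RMA gives no detection call, and in 57.0% of genes at least 2 arrays share a value to the last digit, which can lower their SD. With 3 arrays a group, their number sets the precision.

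The members and lists were chosen with earlier results of these data known. All members are named, with the 3 genes of lowest F test p and any called gene from each retinoid list, and the 3 most correlated genes for the 2 members of largest SD. One gene that this rule names is not reported here. The samples carry the numbers 1 to 3. With group means removed, same-number pairs correlated at 0.138 to 0.391 across genes, all of them positive. Other pairs correlated at -0.365 to 0.223, most of them negative. The ranges overlap, but arrays of 1 number were mostly more alike than other pairs. No label says what samples of 1 number share, and the main fit did not pair them. Its SEs, intervals and p-values thus take no account of the numbers, which were used only in other settings. The other settings were this number as a block, the arrays numbered 3 as a block or left out, each array left out, 2 groups only, array weights, median centring, repeated quantile normalisation, a background filter, another prior, the mean of all probe sets and the authors' symbols. Promoter sequences are from RefSeq, and figures were drawn with matplotlib 3.10.9.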

Additional observations from a re-analysis of the deposited data

How the results depend on the processing

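Across 20 other settings, 1 of 600 member differences passed the threshold (Dhrs3 combined, array weights) and 33 turned sign. None of 190 member F tests passed. Many of the 600 differences could not turn sign. Both blocks, the 2-group fits, the background filter, the other prior, the mean of all probe sets and the authors' symbols leave a member's difference as it was. So does leaving out an array of a group outside the comparison. Over all genes, limma called 8 in the genotype, 0 in the diet and 15 in the combined comparison and 9 in the F test. With the replicate number as a block it called 10, 0, 20 and 13, and the block changed no member's call. Without the arrays numbered 3, leaving 6 arrays, it called 2 in the genotype and 3 in the combined comparison and 2 in the F test. With only the arrays of the 2 groups compared it called 2 and 9. With array weights it called 2 in the diet and 32 in the combined comparison and 26 in the F test. Leaving out 1 array at a time gave 7 to 27 (genotype, lowest without sufficient LRAT -/- array 3 and highest without wild-type array 1), 0 (diet), 7 to 32 (combined, lowest without deficient array 1 or 2 and highest without wild-type array 3) and 8 to 12 (F test). The cause of these shifts was not tested.

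Signs turned as follows. Without the arrays numbered 3, the genotype difference of Cyp26c1 was 0.028, the diet differences were 0.076 for Aldh1a1, 0.11 for Aldh1a2, -0.0085 for Aldh1a3 and 0.020 for Cyp26a1, and the combined differences were -0.012 for Rdh10 and 0.12 for Adh1. With array weights the diet differences were 0.045 for Aldh1a1, 0.055 for Aldh1a2 and 0.013 for Cyp26a1. With arrays centred on the median the combined differences were 0.024 for both Adh1 and Adh7, and after a second quantile normalisation that of Adh7 was 0.029. With 1 array left out, genotype differences ran from -0.28 to 0.021 for Aldh1a1 and from -0.17 to 0.59 for Adh1. Diet differences ran from -0.19 to 0.11 for Aldh1a1, from -0.16 to 0.18 for Aldh1a2, from -0.029 to 0.072 for Aldh1a3, from -0.17 to 0.067 for Cyp26a1, from -0.13 to 0.0015 for Cyp26c1 and from -0.47 to 0.16 for Adh1. Combined differences ran from -0.0080 to 0.061 for Rdh10, from -0.23 to 0.0048 for Cyp26a1, from -0.31 to 0.42 for Adh1 and from -0.033 to 0.031 for Adh7. Each member has 1 probe set, so the mean of all probe sets left its differences unchanged. Cyp26a1 and Adh7 lie near background, which limits what their differences can show.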
